A study of Rattus norvegicus with 6 samples.

Results

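The miR-322, miR-503, miR-351, miR-542, miR-450b and miR-450a cluster is a short run of 6 microRNA (miRNA) hairpins on the rat X chromosome. Its members were found by name in a table of testis miRNAs, which lists both arms of each of these 6 hairpins, so that 12 of the 721 entries belong to it. No entry named miR-424, the human counterpart of rodent miR-322, was listed. The cluster was chosen from measured values of these same libraries, with results of the diabetic against normal contrast known and with rno-miR-542-3p and rno-miR-542-5p put forward as members to examine. The differences between diabetic and normal rats below are therefore a description and not a test of the cluster.

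Small RNA was sequenced from 6 whole-testis samples of adult male Sprague-Dawley rats, 3 in each group. The diabetic rats had received streptozotocin (STZ), which destroys the insulin-producing beta cells, after a period of high-fat feeding, and their testes were taken 8 weeks after the injection. The normal rats had received citrate buffer in place of STZ, and neither their diet nor the ages of the animals are stated. High-fat feeding, STZ and the diabetes that follows cannot be told apart in this design, and in whole tissue a smaller number of cells of a type cannot be told apart from less RNA per cell.

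A miRNA hairpin is cut into a 5p and a 3p strand, of which usually a single strand is kept in the silencing complex. The seed, bases 2 to 8 of the mature strand, does most of the work of recognizing target mRNAs, so miRNAs with the same seed are expected to share many targets. Hairpins that lie close together on the same strand are often cut from a common primary transcript. Within this cluster, miR-322 and miR-503 are best known as brakes on the cell cycle that act on cyclin D and Cdc25a in differentiating muscle, and miR-542-3p is known to target the apoptosis inhibitor survivin. In the testis, much of the X chromosome is silenced in spermatocytes during meiosis, although a number of X-linked miRNAs escape this.

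In the RefSeq gene table of assembly GRCr8, all 6 hairpins lay on the minus strand of chromosome X within 5309 bases, between Plac1 and Hprt1. In the direction of transcription the order was Mir322, Mir503, Mir351, Mir542, Mir450b-1 and Mir450a1. Mir503 began 220 bases after the end of Mir322, Mir351 began 659 bases after Mir503, and the widest gap, of 2861 bases, separated Mir351 from Mir542. Mir450b-1 followed 1029 bases after Mir542, and only 54 bases separated it from Mir450a1. A long noncoding RNA gene, LOC102550366, spanned Mir322, Mir503 and Mir351 but did not reach the other 3 hairpins.

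The mature sequences of the more abundant strand of each hairpin, together with the 3p strand of miR-322 and the scarce 5p strand of miR-542, are given 5′ to 3′ because the comparisons below turn on them. They were read from the RefSeq miRNA table (GRCr8), and capitals mark the seed.
miR-322-5p: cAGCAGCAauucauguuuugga
miR-322-3p: aAACAUGAagcgcugcaaca
miR-503-5p: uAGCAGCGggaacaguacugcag
miR-351-5p: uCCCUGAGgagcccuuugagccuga
miR-542-3p: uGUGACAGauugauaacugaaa
miR-542-5p: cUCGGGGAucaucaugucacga
miR-450b-5p: uUUUGCGAuguguuccuaaua
miR-450a-5p: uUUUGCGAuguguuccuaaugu
The 12 members carried 11 distinct seeds, and the only seed shared within the cluster was that of miR-450a-5p and miR-450b-5p. These strands of 22 and 21 bases were alike over their first 20 bases and differed only at the 3′ end. A read that stops short of that end matches both, and how the authors shared such reads is not stated, so the split between miR-450a-5p and miR-450b-5p is uncertain while their sum is less so. The seeds of miR-322-5p and miR-503-5p agreed over their first 6 bases and differed in the last.

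The table gives each miRNA as counts per 1000000 miRNA reads of its library (CPM), from which whole reads were recovered. The libraries held from 305476 reads in diabetic replicate 1 to 549446 reads in diabetic replicate 3, so that a single read was worth between 1.82 and 3.27 CPM. The tissue label was borne out by the germ cell markers miR-34b, miR-34c and miR-449, whose summed level ran from 307045 to 356042 CPM. The cluster took 11567 of 2690909 reads, or 0.430%. Of its 12 members, 11 entered the statistical comparison, which required at least 1 CPM in at least 3 libraries, and 7 had at least 10 reads in every library. The member that did not enter was miR-450a-3p.

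miR-450a-5p, the last 5p strand of the run, was the most abundant member at 1529 CPM on average over the 6 libraries, and it ranked 64 among all 721 entries. It exceeded miR-351-5p, the next, in 6 of 6 libraries, by 1.75 to 2.80 times. miR-351-5p (743 CPM), miR-542-3p (654 CPM) and miR-450b-5p (576 CPM) followed closely and were not separated in every library, since miR-351-5p lay above miR-542-3p in 5 of 6 libraries and miR-542-3p above miR-450b-5p in 4 of 6. miR-450b-5p was above miR-322-5p (458 CPM) in 6 of 6 libraries, although by as little as 1.01 times. miR-322-5p was in turn 2.48 to 4.80 times the level of miR-503-5p (152 CPM), while miR-503-5p and miR-322-3p (144 CPM) changed places between libraries.

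**Figure D1:**
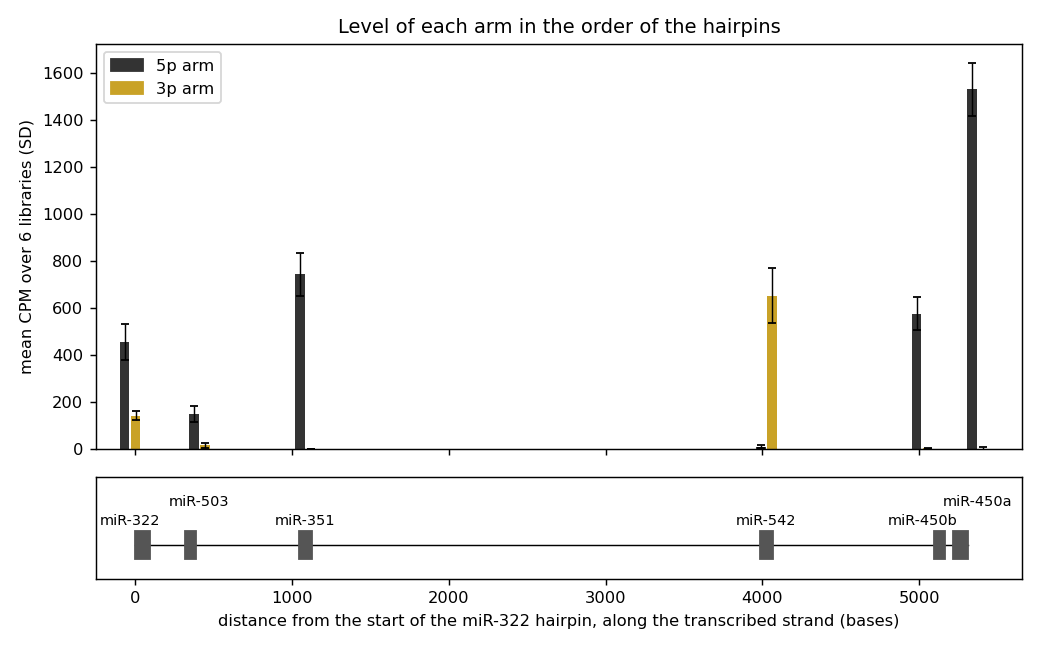
Mean level of each strand over the 6 libraries in CPM (bars, with SD) above the hairpins drawn to scale by distance in bases from the start of the miR-322 hairpin along the transcribed strand; bars are shifted sideways where they would overlap. The level did not follow the order of the hairpins: miR-450a at the far end reached 1529 CPM in its 5p strand, whereas miR-503, the neighbour of miR-322, stayed at 152 CPM, and only miR-542 had its 3p strand as the abundant strand.

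The remaining 5 members were the minor strands of their hairpins. miR-503-3p had 50 reads over the 6 libraries, miR-542-5p 30, miR-450b-3p 13, miR-450a-3p 9 and miR-351-3p 3. miR-503-3p had 0, 8 and 17 reads in diabetic replicates 1, 2 and 3 and 10, 7 and 8 reads in the normal ones. miR-542-5p had 2, 6 and 5 reads against 4, 11 and 2, and miR-450b-3p had 1, 2 and 5 against 0, 4 and 1. These groups overlapped fully. Of the 9 reads of miR-450a-3p, 8 came from normal replicate 3, and miR-351-3p never exceeded 1 read. A count of 0 allows up to 3 reads, which is 9.82 CPM in diabetic replicate 1 and 5.46 CPM in diabetic replicate 3. Small differences between groups in these strands were therefore not detectable at this depth. For miR-503-3p the limit in diabetic replicate 1 lay below the 14.2 to 30.9 CPM of the other libraries, but the groups overlapped. Limits of this kind and the intervals below cover counting error only.

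Whether the testes of diabetic rats differed in these miRNAs from those of normal rats was described strand by strand. miR-542-3p was at 471.4, 639.7 and 580.6 CPM in diabetic replicates 1, 2 and 3 and at 750.2, 686.2 and 796 CPM in normal replicates 1, 2 and 3. Every diabetic library was below every normal one. The group means were 564 ± 85.4 and 744 ± 55.2 CPM (SD, n = 3 per group), and the difference was -0.41 on the log2(CPM + 1) scale with a standard error of 0.15. The lowest value was that of the shallowest library, diabetic replicate 1, and without it the difference was -0.28.

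miR-322-5p was at 402.7, 427.4 and 391.3 CPM in the diabetic libraries and at 494.1, 594.8 and 437.6 CPM in the normal ones. Its groups did not overlap either, although the lowest normal value lay just above the highest diabetic one. The means were 407 ± 18.5 and 509 ± 79.6 CPM (SD, n = 3 per group), a log2 difference of -0.31 with a standard error of 0.15, which became -0.19 without normal replicate 2. The other strand of the same hairpin, miR-322-3p, had 157.1, 161.3 and 138.3 CPM in diabetic rats against 140.5, 109.6 and 156.6 CPM in normal ones, where the groups overlapped and the log2 difference was 0.18 with a standard error of 0.22.

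The other strands with at least 10 reads in every library had overlapping groups. miR-503-5p, which shares most of its seed with miR-322-5p, was at 104.8, 158.6 and 152.9 CPM in the diabetic rats against 199.4, 123.8 and 169.8 CPM, a log2 difference of -0.24 with a standard error of 0.25. miR-351-5p was at 612.2, 776.8 and 731.6 CPM against 847.7, 830.3 and 662.1 CPM, with a log2 difference of -0.14 and a standard error of 0.15. For both, the difference was no larger than its error.

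The pair with a common seed was on the other side of 0. miR-450a-5p was at 1715.4, 1569.7 and 1432.4 CPM in diabetic rats, beside 1480, 1561.1 and 1416.6 CPM in normal ones, a log2 difference of 0.08 with a standard error of 0.11 that became -0.03 when libraries were scaled by upper quartiles. miR-450b-5p was at 592.5, 564.4 and 622.4 CPM against 498.6, 678 and 501.8 CPM, a log2 difference of 0.10 with a standard error of 0.15, and it became -0.01 with that scaling. Upper-quartile scaling moved the median of all tested miRNAs to -0.10, so that both stayed above that median. Their summed level with the scarce 3p strands was 2173 ± 129 CPM in diabetic and 2054 ± 169 CPM in normal rats (SD, n = 3 per group), which overlapped.

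**Figure D2:**
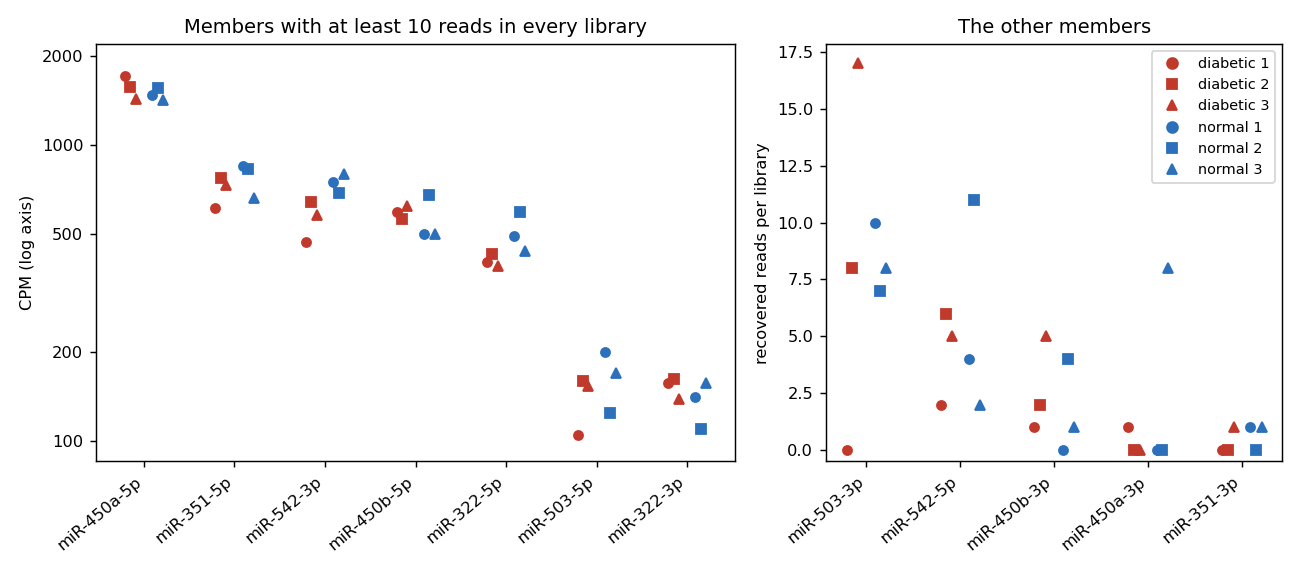
Level of every member in each library: CPM on a log axis for the 7 members with at least 10 reads in every library (left) and recovered reads for the other 5 (right); red marks diabetic and blue normal rats, and circles, squares and triangles mark replicates 1, 2 and 3. The red and blue points separate for miR-542-3p and miR-322-5p, with the diabetic points lower, and overlap for the other members.

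The members' counts are given beside those of the whole table. By limma, 0 of the 11 members tested had an adjusted p under 0.05, as did 0 of all 578 miRNAs tested (0%). At an unadjusted p under 0.05 there was 1 member, miR-542-3p, or 1 of 11, where 8.82% of all miRNAs were called and 3.29% were called as lower in diabetes. The count of members was 2, miR-542-3p and miR-322-5p, with the edgeR and DESeq2 tests on the recovered reads, which called 9.52% and 6.75% of all miRNAs. Both gave 0 members at an adjusted p under 0.05, beside 0.346% and 0.173% of all. The count was 0 without diabetic replicate 1, where limma called 7.97% of all, and with limma's trend switched off, where it called 7.09%. Groups did not overlap for 2 of the 11 members, both lower in diabetes, while this held for 14.9% of all tested miRNAs in either direction and for 6.92% as lower. Without diabetic replicate 3 it held for 4 members and without normal replicate 2 for 6, beside 25.8% and 25.3% of all tested miRNAs. Because the contrast was known when the cluster was chosen, nothing is read from these counts. Of the 11 members 5 had a positive and 6 a negative log2 difference. The median of the members was -0.14, and that of all tested miRNAs was 0.0046.

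**Figure D3:**
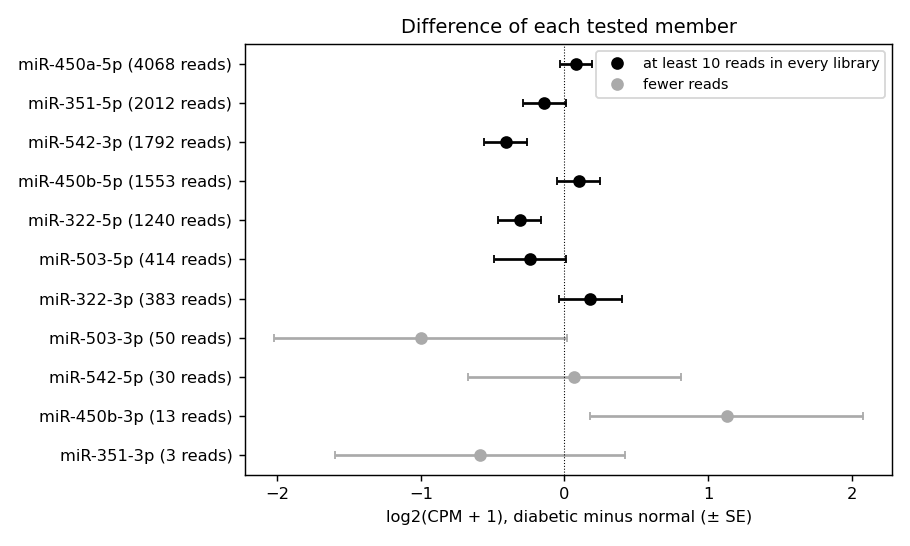
Difference between diabetic and normal rats on the log2(CPM + 1) scale for the 11 tested members, with bars of 1 standard error; black points are members with at least 10 reads in every library and grey points the scarcer ones. Black points run from -0.41 for miR-542-3p to 0.18 for miR-322-3p, and the grey ones have errors from 0.74 to 1.02.

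The cluster's sum joined members of both signs. Among members with at least 10 reads in every library, each difference above 0 was smaller than its standard error. The summed level was 4069, 4341 and 4100 CPM in the diabetic and 4445, 4628 and 4178 CPM in the normal libraries. The means were 4170 ± 149 and 4417 ± 226 CPM (SD, n = 3 per group). The groups overlapped, and the log2 difference of the sum was -0.08. It was -0.18 when miR-450a-5p, the most abundant member, was left out. Split at the widest gap, the miR-322, miR-503 and miR-351 side stood at 1423 ± 136 CPM in diabetic rats against 1608 ± 143 CPM, and the miR-542, miR-450b and miR-450a side at 2747 ± 81.0 and 2810 ± 127 CPM (SD, n = 3 per group). Neither side had groups that parted.

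The make-up of the cluster was described by the share of each hairpin in its sum. No like shares were computed for other clusters, so how often such shares part the groups is not known. The miR-542 hairpin, both strands together, supplied 11.7, 15.1 and 14.4% of the cluster's CPM in diabetic rats and 17.1, 15.3 and 19.1% in normal rats. The miR-322 hairpin supplied 13.4% ± 0.440 and 14.6% ± 0.560 in the same order (SD, n = 3 per group), again with every diabetic library lower. The miR-450a hairpin supplied 42.2, 36.2 and 34.9% in diabetic rats, every one above the 33.3, 33.7 and 34.3% of normal rats, and diabetic replicate 1 stood highest. The shares of miR-503, miR-351 and miR-450b overlapped between groups. Shares of a whole are tied to each other, so a lower share of one hairpin raises those of the others.

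**Figure D4:**
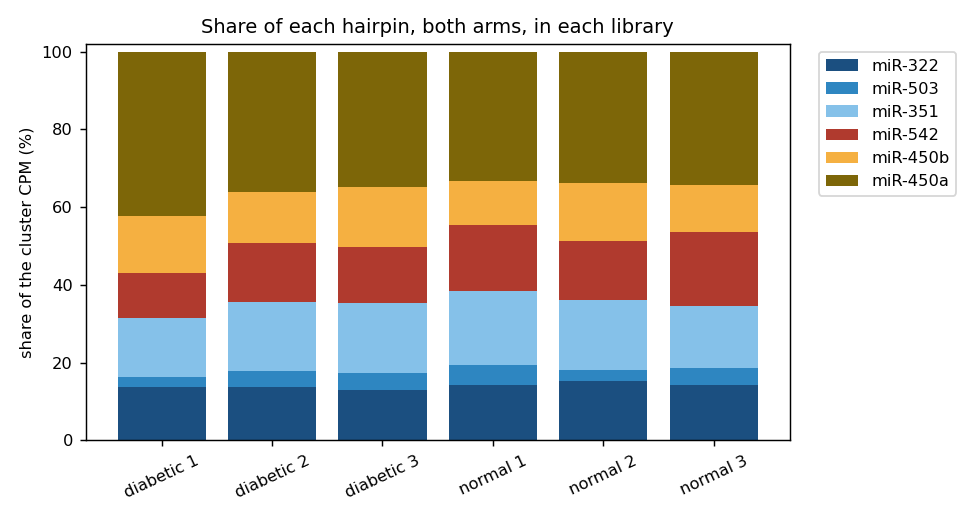
Share of the cluster's summed CPM supplied by each hairpin, both strands together, in each of the 6 libraries (stacked bars, percent). miR-450a supplied 33.3 to 42.2% in every library, and the miR-542 segment is narrower in the 3 diabetic libraries, at 11.7 to 15.1%, than in the 3 normal ones, at 15.3 to 19.1%.

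The neighbouring members were then compared with each other within each library, which removes the library total from the comparison. The ratio of miR-450a-5p to miR-542-3p, from hairpins at the same end of the run, was 3.64, 2.45 and 2.47 in diabetic and 1.97, 2.27 and 1.78 in normal rats. These did not overlap, and the log2 difference of the ratio was 0.49. The ratio of miR-322-5p to miR-450a-5p was 0.235, 0.272 and 0.273 in diabetic against 0.334, 0.381 and 0.309 in normal rats, and that of miR-322-5p to miR-450b-5p was 0.680, 0.757 and 0.629 against 0.991, 0.877 and 0.872. The ratios of miR-322-3p and of miR-351-5p to miR-542-3p also parted, the latter narrowly. In all, 5 of the 21 ratios among the 7 abundant members had groups that did not overlap, 3 of them with miR-542-3p and 2 with miR-322-5p, where 14.8% of the 32896 ratios between miRNAs of the same depth did so. Without normal replicate 2 there were 10 such ratios and without normal replicate 3 there were 9, beside 28.4% and 24.4% of all. These ratios use the same contrast and share members, and they are not independent of each other.

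By contrast, the ratio of miR-542-3p to miR-322-5p, the 2 strands that were lower in diabetic rats, did not part the groups, and its log2 difference, taken as miR-322-5p over miR-542-3p, was 0.10. The ratio of miR-450a-5p to miR-450b-5p ranged from 2.30 to 2.97 over the 6 libraries with a log2 difference of -0.02, and the standard deviation of its log2 was 0.17, the smallest among the 21 ratios together with that of miR-322-5p to miR-351-5p. At the other end stood the ratio of miR-450b-5p to miR-503-5p, with a standard deviation of 0.47. Within groups, the chi-square per degree of freedom of the ratios had a median of 3.32 and ran from 0.770 for miR-322-5p against miR-450b-5p to 6.44 for miR-450b-5p against miR-542-3p, where a value of 1 is what counting error alone gives. A different measure, the chi-square of single miRNAs against library totals, had a median of 3.35 over the 257 miRNAs with 10 or more reads per library. It is no background for the ratios, and none was computed.

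**Figure D5:**
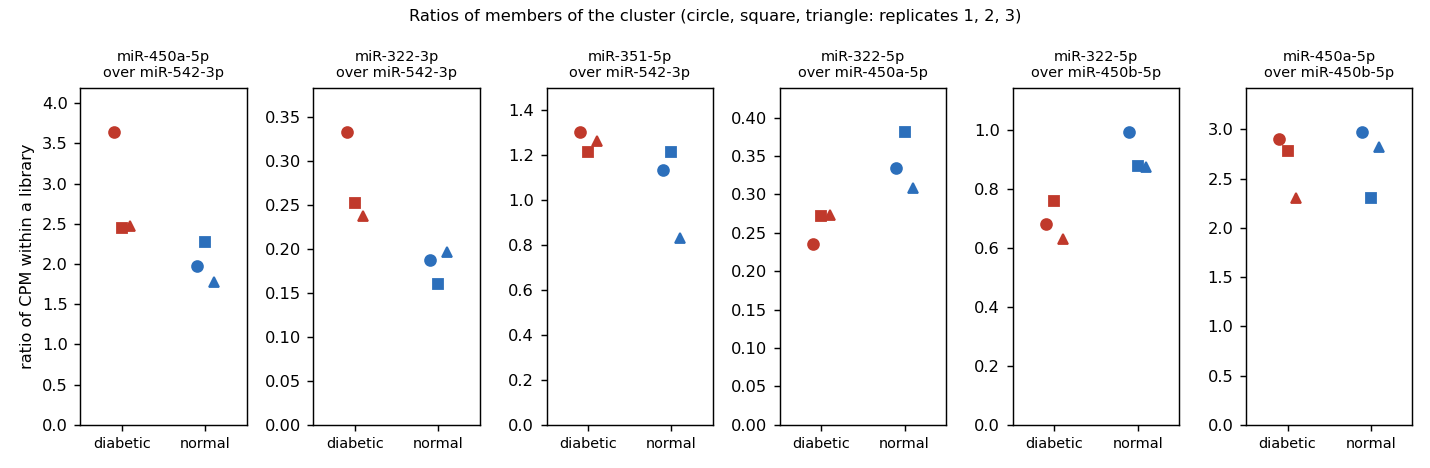
Ratio of CPM within a library for 6 pairs of members, diabetic (red) against normal (blue) rats, with circles, squares and triangles for replicates 1, 2 and 3 and each axis starting at 0. The first 5 pairs are those whose groups did not overlap, by the least for miR-351-5p over miR-542-3p, and the last pair, miR-450a-5p over miR-450b-5p, ranged from 2.30 to 2.97 with the groups mixed.

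Across the 6 libraries the correlations between members were of both signs, and no background over pairs of other miRNAs was computed. Over the 21 pairs the Pearson correlation of log2(CPM + 1) had a median of 0.02 and ran from -0.80, between both strands of miR-322, to 0.76, between miR-503-5p and miR-542-3p, and Spearman's rho ran from -0.83 to 0.77. For deviations from group means the median Pearson correlation was -0.14. These are descriptions over only 6 libraries that share their totals, so weak values among them carry little information. Within groups, the chi-square per degree of freedom of single members against library totals ran from 1.29 for miR-322-3p to 5.10 for miR-351-5p. For most of these members the spread thus exceeded counting error. Outside the cluster, the 5 miRNAs whose log2 level followed the summed cluster most closely over the 6 libraries, among 250 compared, were let-7c-5p (Pearson r = 0.96), miR-532-3p (0.93), miR-148a-3p (0.89), miR-152-3p (0.84) and miR-34c-3p (0.82).

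Strand choice was uneven between hairpins and did not part the groups. miR-542 was kept almost wholly as its 3p strand, which made up 98.6, 97.5 and 98.5% of the hairpin's reads in diabetic and 98.8, 96.8 and 99.5% in normal rats. Its widest 95% exact binomial interval, for diabetic replicate 1, ran from 95.1 to 99.8%. miR-351, miR-450a and miR-450b were kept as 5p in at least 98.6% of reads in every library. miR-503 was 90.4% 5p on average in both groups, with SDs of 8.66 and 1.21 (n = 3 per group).

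miR-322 was the hairpin with the most even strands. Its 5p strand took 71.9, 72.6 and 73.9% of the reads in diabetic and 77.9, 84.4 and 73.7% in normal rats. The exact interval was 64.6 to 78.5% for diabetic replicate 1 and 80.2 to 88.1% for normal replicate 2, the highest of the 6 libraries, whose interval overlapped only that of normal replicate 1, 72.5 to 82.6%. The means were 72.8% ± 0.992 and 78.6% ± 5.44 (SD, n = 3 per group), and the groups overlapped through normal replicate 3. Of the 50 hairpins with at least 10 reads of each strand in every library, 12.0% had a strand share whose groups did not overlap, and miR-322, the only such hairpin of this cluster, was not among them.

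The seeds place part of the cluster in families that are encoded elsewhere. A RefSeq mature sequence was found for 492 of the 539 named entries, and the following counts cover those. miR-322-5p shared its 7-base seed with miR-15b-5p, miR-16-5p, miR-195-5p and miR-497-5p, a family known to restrain the cell cycle. It supplied 7.35% of the CPM with that seed, from 6.24 to 9.57% in single libraries. miR-16-5p was far more abundant, at 4156 CPM on average. If the first 6 bases of the seed are counted, miR-503-5p joins the family with 2.36% of its CPM. The other strands found with that 7-base seed, among the entries with a RefSeq sequence only, are printed to be set beside miR-322-5p above.
miR-16-5p: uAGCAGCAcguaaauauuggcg
miR-195-5p: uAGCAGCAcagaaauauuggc
miR-497-5p: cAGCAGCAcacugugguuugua
miR-15b-5p: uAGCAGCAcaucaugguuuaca
Log2 differences between diabetic and normal rats in the family were -0.12 for miR-16-5p, -0.24 for miR-195-5p, -0.20 for miR-497-5p and 0.04 for miR-15b-5p, with standard errors from 0.11 to 0.17. Of the 8 entries of the miR-15, miR-16, miR-195 and miR-497 list that were tested, 0 had an unadjusted p under 0.05 by limma. Over all tested miRNAs that share was 8.82%. The median log2 difference of the list was -0.16.

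miR-351-5p shared its seed with miR-125a-5p and miR-125b-5p, the mammalian relatives of the worm miRNA lin-4. It supplied 4.30% of the CPM with that seed, from 3.83 to 5.05% in single libraries, beside 72.0% for miR-125b-5p and 23.7% for miR-125a-5p. The 3 strands are printed together, with the shared seed in capitals.
miR-351-5p: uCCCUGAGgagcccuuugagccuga
miR-125a-5p: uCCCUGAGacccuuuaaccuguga
miR-125b-5p: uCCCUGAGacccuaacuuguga
Of the 5 miR-125 entries tested, 0 had an unadjusted p under 0.05 by limma, beside 8.82% of all tested miRNAs. miR-125b-5p was lower in every diabetic library, with a log2 difference of -0.17 and a standard error of 0.09. It was the 1 entry of the 5 to be so, beside 6.92% of all tested miRNAs. miR-125a-5p was at 0.13 with a standard error of 0.11. No other entry with a RefSeq sequence carried the seeds of miR-542-3p, miR-542-5p, miR-322-3p or of the pair miR-450a-5p and miR-450b-5p. The cluster supplied all of the reads with these seeds, so the levels given above are those of the whole seed family among these entries.

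The cluster was also placed beside other X-linked miRNAs and the markers of testis cell types, using lists of names. Over all tested miRNAs, limma called 5.54% as higher in diabetes at an unadjusted p under 0.05. The list for the X-linked testis cluster around miR-741-3p had 22 tested members. Of these, limma called 3 as higher in diabetes and 0 as lower at an unadjusted p under 0.05. The counts hold for the listed names only, which left out miR-201, miR-509 and miR-547. Among the strands left out, miR-547-3p (log2 difference -0.20) was called as lower, and miR-201-5p (0.20) was higher in every diabetic library without being called. The summed level of the listed members was 93727 to 102523 CPM in diabetic against 85458 to 88818 CPM in normal rats. The largest part of that sum was miR-741-3p (42380 ± 2510 against 36257 ± 535 CPM). Over the 22 members the median log2 difference was 0.06, with members on both sides of 0. The X-linked miR-500 and miR-532 cluster had 1 of 6 called as higher, with sums of 1542 to 1575 against 1403 to 1437 CPM. Most of that sum was miR-532-5p (1262 ± 12.1 against 1141 ± 3.43 CPM), the called member was miR-500-3p, and miR-362-5p (-0.12), miR-501-3p (-0.31) and miR-532-3p (-0.27) had log2 differences below 0, with a median of 0.00 over the 6. Both sums were higher in every diabetic library, while the cluster of miR-322 to miR-450a overlapped. These differences between clusters were not tested.

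Several marker levels moved with the groups beside miR-542-3p and miR-322-5p. The endothelial marker miR-126a, both strands, summed to 11722 to 13783 CPM in diabetic and 8662 to 11086 CPM in normal rats. By limma, 1 of 2 strands was called as higher at an unadjusted p under 0.05, where 5.54% of all tested miRNAs were. That strand was miR-126a-3p, with a log2 difference of 0.41, whereas miR-126a-5p was at 0.13 with a standard error of 0.12 and overlapping groups. No background was computed for sums of strands. miR-202, of Sertoli and germ cells, summed to 4102 to 4467 against 3262 to 3693 CPM, also with 1 of 2 strands called as higher. That strand was miR-202-5p, with a log2 difference of 0.30, whereas miR-202-3p was at -0.18 with a standard error of 0.23. Of the leukocyte markers miR-142, miR-150, miR-155 and miR-223, 1 of 6 strands was called, as lower, where 3.29% of all tested miRNAs were. The leukocyte sums of 543 to 691 and 632 to 794 CPM overlapped. None of the germ cell markers (0 of 7), the smooth muscle markers miR-143 and miR-145 (0 of 4), the striated muscle markers miR-1, miR-133a, miR-133b and miR-206 (0 of 5) or the red blood cell markers miR-144, miR-451 and miR-486 (0 of 4) was called, beside 8.82% of all tested miRNAs. Groups did not overlap for 2 of 7 germ cell markers, miR-34b-3p and the scarce miR-449c-3p. The same held for 2 of 6 leukocyte strands, miR-142-3p and the scarce miR-223-5p. All of these were lower in diabetes, beside 6.92% of all tested miRNAs. The part of these cell types in the levels of the cluster was not tested.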

How the data were processed

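The authors sequenced single-end small RNA reads from 6 testis samples, removed primers and adaptors, counted small RNAs and annotated known miRNAs with miRBase families. The deposited table holds 1 entry per mature miRNA, in CPM rounded to 1 decimal under headings that say TPM, 1 column per library, with 0 columns unmapped. The submitters' processing notes list Bowtie 0.12.2, HISAT2 2.0, StringTie 1.3.0 and the mouse build mm8 with no role, and the protocol text describes an mRNA library. Counting of reads that match several miRNAs is not stated. CPM values are relative to all miRNA reads of a library and are not scaled by length, and differences in adaptor ligation between sequences were not tested.

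From these values whole reads were recovered as the smallest total that made every value whole (100% within 0.05 CPM). The main test was limma 3.58.1 in R 4.3.3 (eBayes with trend) on log2(CPM + 1), over the 578 miRNAs that reached 1 CPM in 3 or more libraries. Benjamini-Hochberg adjustment ran over all of them. Alternatives were other scalings, filters, a pseudocount of 0.1, no trend, a replicate block, the count tests of edgeR 4.0.16 and DESeq2 1.42.0, and omission of single replicates. The fits were tested on simulated data whose planted changes were larger than the differences described here, so that test does not cover changes this small. Nothing states that same-numbered samples were paired or that every sample came from another rat, so p-values measure only the spread between these samples, which may be technical. The 12 members are all named; further names are the 5 miRNAs nearest to the summed cluster and the lists given in the report. Members and lists were chosen with earlier results of these data known.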

Additional observations from a re-analysis of the deposited data

How the results depend on the processing

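The number of miRNAs with an adjusted p under 0.05 was 0 by limma and became 8 without the trend, 2 with edgeR and 1 with no filter, under a minimum of 10 reads per library, with the replicate block, with DESeq2, with TMM and with upper-quartile factors, and 0 to 2 when a replicate was left out. None of these was a member of the cluster under any alternative run. The 51 miRNAs at an unadjusted p under 0.05 became 25 under that minimum, where fewer were tested.

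The 1 member at an unadjusted p under 0.05 became 0 without the trend (41 of all 578 miRNAs tested) and 2 with edgeR (55), DESeq2 (39), DESeq2's size factors (60), TMM (60) and upper-quartile factors (57), and 0 to 2 when a replicate was left out: 0 without diabetic replicate 1 (44 of 552) and 2 without normal replicate 3 (44 of 545). The 2 members whose groups did not overlap became 2 to 6 when a replicate was left out (4 without diabetic replicate 3 and 6 without normal replicate 2). The 5 member ratios became 6 to 10 (9 without normal replicate 3 and 10 without normal replicate 2), an alternative added after seeing the data. With fewer libraries, groups part more easily: 22.1 to 25.8% of all tested miRNAs then did.

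The log2 difference of the summed cluster was -0.08 and became -0.19 with upper-quartile factors and -0.18 without miR-450a-5p. miR-542-3p stayed between -0.52 and -0.28 and miR-322-5p between -0.42 and -0.19 in their 13 alternatives each. Of 140 alternative values of single members, 2 moved by more than the spread between replicates. The correlation of deviations between same-numbered samples ran from -0.089 to 0.006 over 257 miRNAs. With 3 samples per group, such values cannot show whether the samples were paired. The replicate block left the difference of miR-542-3p at -0.41, as it must when each block holds a library of each group. Unless stated, the cause was not tested. Depth limits the 5 minor strands, which held at most 17 reads in any library.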
